A study of Mus musculus with 12 samples.

Results

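The 10 genes Sqstm1, Nbr1, Keap1, Nfe2l2, Nqo1, Txnrd1, Srxn1, Htatip2, Osgin1 and Cbr3 carry the signalling axis from the autophagy receptor p62 through KEAP1 to the transcription factor NRF2 and 6 of its target genes. They were taken by symbol from a raw count table of 24421 genes, and all 10 were among the 14443 genes with enough reads to test. The RNA came from C57BL/6 mouse liver at 15 months of age, in 4 groups of 3 libraries each. These were non-tumour liver and tumour of Atg7 knockouts (Atg7KO), and non-tumour liver and tumour of Atg7 and Hmgb1 double knockouts (DKO). Atg7, an enzyme needed to form autophagosomes, was thus knocked out in all 4 groups, including both that serve as controls here, and no wild-type liver was among the samples. The labels give neither the promoter or cell type of the deletions nor whether each library is a separate animal, and p-values therefore reflect only how these samples spread, which may be technical. The comparisons ask how tumours differ from non-tumour liver in each genotype and whether Hmgb1 status goes with a difference in either tissue.

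As background, p62 is normally consumed by autophagy together with the cargo it binds, and it builds up as protein when autophagy fails. It then binds KEAP1, the adaptor through which a CUL3 ubiquitin ligase keeps NRF2 unstable, and the freed NRF2 enters the nucleus and activates genes of antioxidant defence and detoxification, Sqstm1 among them. In mouse liver without autophagy this route is known for lasting NRF2 activity, liver enlargement and tumours. Because NRF2 and KEAP1 are controlled mainly as proteins, mRNA levels read the axis chiefly through the target genes.

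The targets are tied to NRF2 through the antioxidant response element, a short sequence bound by NRF2 with a small MAF protein. The promoters shown here hold a match to 1 of 2 forms of that element. They are RefSeq sequences of build GRCm38.p6 (the assembly also called mm10), from 250 bases before to 50 after an annotated start, written 5′ to 3′ along the gene, with matches in capitals. The strict form searched was TGANTCAGC and the loose form TGACNNNGC, both on either strand.
Srxn1, chr2:152105274-152105573, plus strand: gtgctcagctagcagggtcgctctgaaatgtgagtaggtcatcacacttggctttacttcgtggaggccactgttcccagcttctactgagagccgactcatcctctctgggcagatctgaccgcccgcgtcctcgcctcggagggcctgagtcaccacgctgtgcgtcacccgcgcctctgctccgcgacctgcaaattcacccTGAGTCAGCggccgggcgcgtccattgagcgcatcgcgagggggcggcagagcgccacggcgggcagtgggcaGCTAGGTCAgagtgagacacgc
Htatip2, chr7:49759262-49759561, plus strand: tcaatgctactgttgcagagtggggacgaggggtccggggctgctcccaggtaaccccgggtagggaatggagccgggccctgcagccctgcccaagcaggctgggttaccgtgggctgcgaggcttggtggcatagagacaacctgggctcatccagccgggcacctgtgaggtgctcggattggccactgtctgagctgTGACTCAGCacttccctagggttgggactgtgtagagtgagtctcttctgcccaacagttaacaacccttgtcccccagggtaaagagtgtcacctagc
Osgin1, chr8:119436897-119437196, plus strand: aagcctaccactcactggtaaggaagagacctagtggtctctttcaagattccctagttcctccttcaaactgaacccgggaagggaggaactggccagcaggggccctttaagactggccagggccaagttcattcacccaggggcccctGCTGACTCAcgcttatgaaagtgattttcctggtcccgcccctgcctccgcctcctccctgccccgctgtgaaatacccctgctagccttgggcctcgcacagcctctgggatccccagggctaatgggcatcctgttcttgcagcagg
Txnrd1, chr10:82858956-82859255, plus strand: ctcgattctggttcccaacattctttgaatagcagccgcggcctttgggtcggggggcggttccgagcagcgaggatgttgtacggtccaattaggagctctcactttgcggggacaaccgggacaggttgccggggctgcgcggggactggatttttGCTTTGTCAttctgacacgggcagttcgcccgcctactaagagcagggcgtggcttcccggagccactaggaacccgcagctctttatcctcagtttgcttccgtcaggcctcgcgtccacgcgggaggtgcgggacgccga
The strict form lay 45 bases upstream of the Srxn1 start as TGAGTCAGC, 49 upstream at this Htatip2 start as TGACTCAGC, and 99 upstream of the Osgin1 start as TGAGTCAGC on the opposite strand. The Txnrd1 window held the loose form on the opposite strand, 92 bases upstream, and the second run of capitals in Srxn1 is the loose form on the opposite strand, 28 bases after the start. The Htatip2 match satisfies both forms, which overlap there. Of the 32851 mouse promoters in the table, 1.19% held the strict form and 12.4% the loose form; of 14 promoters of the 10 genes, 3 and 5 did. Txnrd1 and Htatip2 have other annotated starts, and the loose form also lay 240 bases upstream of the Nfe2l2 start and 11 bases after the other Htatip2 start. The windows of Sqstm1, Nbr1, Keap1, Nqo1 and Cbr3 did not hold these letters. Sequence outside the windows was not searched, so an element farther from the start would be missed. A match is a description of the sequence only.

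Library totals ran from 18292190 to 32354958 reads, and each of the 10 genes had between 1067 reads (Keap1) and 57690 reads (Sqstm1) in every library. At that depth counting error is small beside the spread from library to library (common biological coefficient of variation 0.365). Reads of the deleted genes were present: Atg7 stood at 10.1 ± 2.70, 5.56 ± 2.61, 13 ± 4.13 and 6.96 ± 3.40 CPM (SD, n = 3) in non-tumour and tumour tissue of Atg7KO and then of DKO. Hmgb1 stood at 118 ± 12.3, 115 ± 20.4, 101 ± 17.4 and 79.0 ± 16.3 CPM in that order. Counts cover whole genes, exons outside a deletion included, and other cells of the liver, so these levels do not settle the genotypes. Xist had 1130 to 12216 reads in the Atg7KO libraries and 0 to 2 in the DKO libraries. Summed reads of 4 Y-linked genes were 0 to 2 in Atg7KO and 1898 to 4639 in DKO. These transcripts mark all Atg7KO libraries as female and all DKO libraries as male, though the labels give no sex. Any difference between genotypes therefore cannot be told apart from a difference between sexes. Hepatocyte markers were abundant in every library and none of the markers of 8 liver cell types was without reads in any group. In bulk liver, fewer cells of a type and less RNA per cell cannot be told apart.

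Levels are given as CPM, the reads of a gene divided by its TMM-scaled library size, and between genes as CPM per kilobase of gene length. Per kilobase, Sqstm1 was the most abundant of the 10 in each of the 12 libraries, at 473 ± 180 (SD, n = 12). Cbr3 at 243 ± 132, Srxn1 at 215 ± 101, Nqo1 at 139 ± 79.6 and Osgin1 at 138 ± 60.3 followed, with overlapping spreads between neighbours. Txnrd1 stood at 91.1 ± 35.8, Htatip2 at 78.0 ± 24.1, Nbr1 at 48.9 ± 11.0 and Nfe2l2 at 39.3 ± 4.45 CPM per kilobase. Keap1 was the least abundant of the 10 in each library, at 15.8 ± 1.37. The order thus ran from p62 through the 6 targets and Nbr1 down to the transcription factor and its inhibitor.

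**Figure D1:**
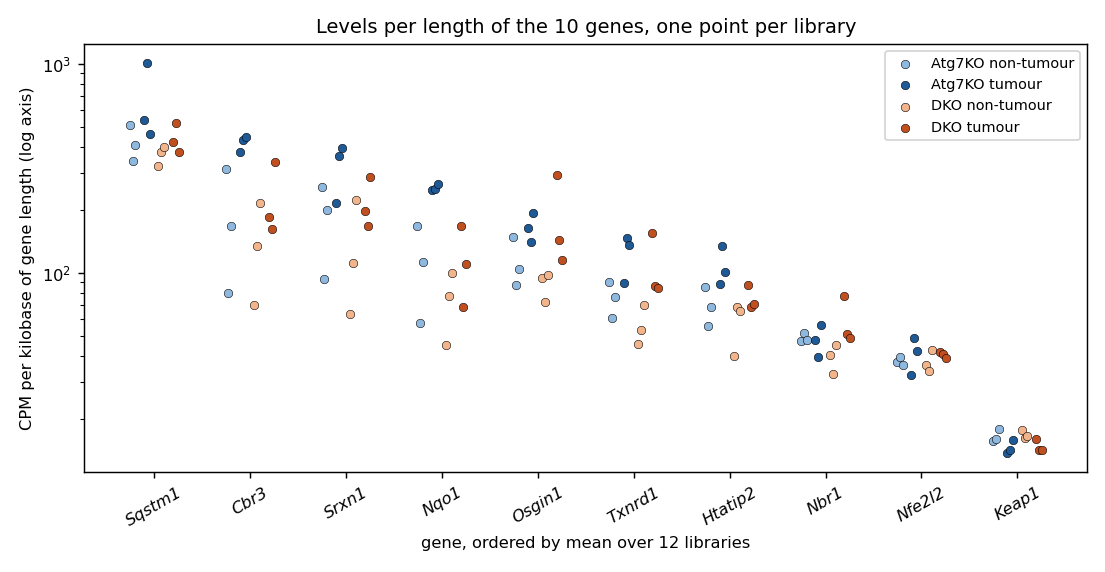
Levels of the 10 genes per kilobase of gene length (CPM per kilobase, log axis), 1 point per library, coloured by group and ordered by the mean over 12 libraries. Sqstm1 lies highest and Keap1 lowest in every library, and Keap1 and Nfe2l2 points lie closest together.

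Keap1 and Nfe2l2 were nearly level across all groups while the 6 targets were not. The coefficient of variation over the 12 libraries was 8.69% for Keap1 and 11.3% for Nfe2l2, and 0.305% and 2.56% of the 3284 genes with a mean of at least 50 CPM varied less. It was 57.1% for Nqo1, 54.3% for Cbr3 and 47.1% for Srxn1, above the values of 92.2%, 91.2% and 87.0% of those genes. Osgin1 at 43.8%, Txnrd1 at 39.3%, Sqstm1 at 38.0%, Htatip2 at 30.9% and Nbr1 at 22.4% lay between, beside a median of 27.0% over those genes, and of these 5 Nbr1 alone lay below that median. The highest library exceeded the lowest 6.30-fold for Cbr3, 6.17-fold for Srxn1 and 5.91-fold for Nqo1, against 1.5-fold for Nfe2l2 and 1.30-fold for Keap1.

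Sqstm1 (NM_011018, mm10 chr11:50200152-50210820, minus strand) encodes p62. Its CPM in replicates 1, 2 and 3 was 1035, 691 and 830 in non-tumour Atg7KO liver, 1085, 2032 and 935 in its tumours, 661, 768 and 812 in non-tumour DKO liver and 852, 1051 and 770 in its tumours. Atg7KO tumour 2 stood above every other library, and tumour and non-tumour ranges overlapped in both genotypes. The log2 fold change of tumour over non-tumour was 0.66 (SE 0.31; edgeR adjusted p = 0.307) in Atg7KO and 0.25 (SE 0.31; edgeR adjusted p = 0.656) in DKO, and neither passed the threshold of 0.05. Without Atg7KO tumour 2 the first was 0.24, and without DKO tumour 2 the second was 0.12. DKO minus Atg7KO was -0.60 (SE 0.31; edgeR adjusted p = 0.346) in tumours and -0.19 in non-tumour liver. Without Atg7KO tumour 2 the difference in tumours was -0.16, and without Atg7KO non-tumour 1 that in non-tumour liver was -0.02. Atg7KO tumour 2 also stood apart in cell type markers: its 9 hepatocyte markers summed to 31892 CPM against at least 58056 in the others, its 10 cholangiocyte markers to 6509 CPM against 359 to 1228, and its 10 macrophage markers to 301 CPM against at least 549, and their part in the Sqstm1 value was not tested.

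Nbr1 (NM_008676, chr11:101552107-101581951, plus strand) encodes an autophagy receptor related to p62 that shares its ubiquitin-binding and LC3-binding parts. Its CPM was 242, 265 and 246 in non-tumour Atg7KO liver, 244, 204 and 288 in its tumours, 209, 169 and 233 in non-tumour DKO liver and 399, 263 and 252 in its tumours. DKO tumours lay above DKO non-tumour liver without overlap, Atg7KO tumours straddled their non-tumour values, and DKO non-tumour liver lay below Atg7KO non-tumour liver. In log2 terms the tumour effect was 0.58 (SE 0.23; edgeR adjusted p = 0.177) in DKO and -0.03 (SE 0.23; edgeR adjusted p = 0.96) in Atg7KO, and 0.34 in DKO without DKO tumour 1. The test of the difference between these effects gave 0.61 (SE 0.33; edgeR adjusted p = 0.354), and 0.37 without DKO tumour 1.

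Keap1 (NM_001110307, chr9:21229730-21239332, minus strand) stood at 70.2, 72.0 and 80.4 CPM in non-tumour Atg7KO liver, 61.7, 63.8 and 70.9 in its tumours, 79.5, 72.9 and 74.4 in non-tumour DKO liver and 71.7, 64.0 and 63.8 in its tumours. Tumour values lay low in both genotypes, without overlap in DKO and with overlap in Atg7KO. The log2 fold change was -0.18 (SE 0.14) in each, with edgeR adjusted p of 0.555 in Atg7KO and 0.463 in DKO, and -0.18 (SE 0.10; edgeR adjusted p = 0.317) averaged over both.

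Nfe2l2 (NM_010902, chr2:75675519-75704641, minus strand), which encodes NRF2, stood at 92.4, 97.8 and 89.3 CPM in non-tumour Atg7KO liver, 80.1, 120 and 105 in its tumours, 89.7, 83.7 and 106 in non-tumour DKO liver and 104, 101 and 96.8 in its tumours. All 4 groups overlapped. Its log2 fold change in tumours was 0.13 (SE 0.18; edgeR adjusted p = 0.756) in Atg7KO and 0.11 (SE 0.18; edgeR adjusted p = 0.749) in DKO, and without Atg7KO tumour 2 the first was -0.01. Per length there were 2.29 ± 0.24 Nfe2l2 reads for each Keap1 read in non-tumour Atg7KO liver, 2.81 ± 0.54 in its tumours, 2.23 ± 0.30 in non-tumour DKO liver and 2.74 ± 0.12 in its tumours (SD, n = 3). The ratio of Sqstm1 to Keap1, computed likewise, was 25.5 ± 6.13, 46.0 ± 21.5, 21.8 ± 3.09 and 29.6 ± 5.68 in that order, and Atg7KO tumour 2 held its highest value, 70.1.

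**Figure D2:**
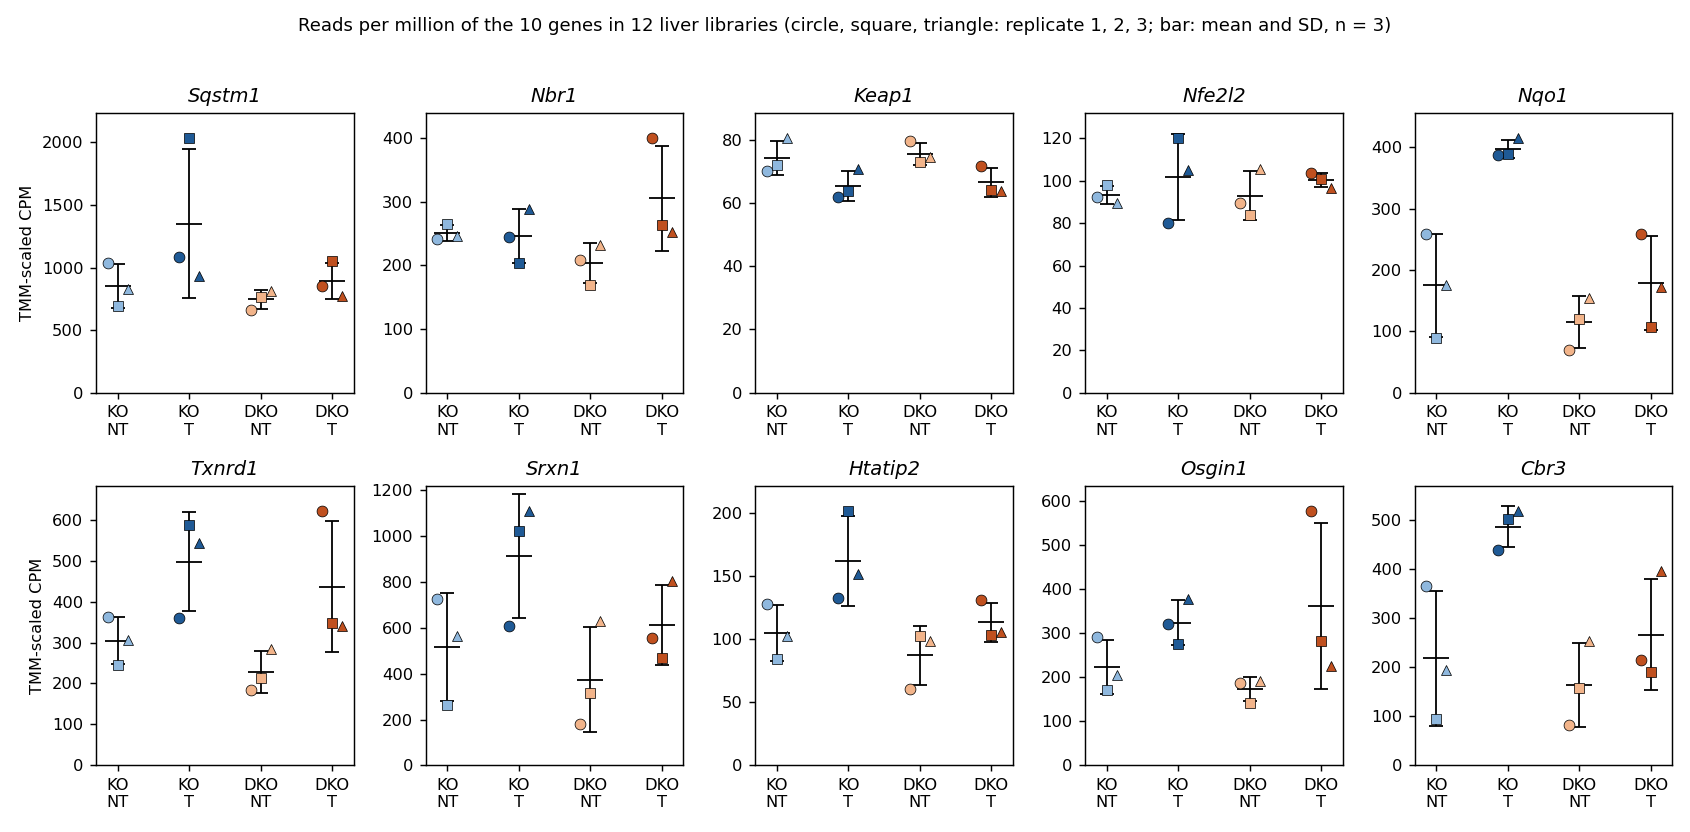
TMM-scaled CPM of each gene in the 12 libraries (KO, Atg7KO; NT, non-tumour; T, tumour), with the mean and SD of 3 libraries per group. Keap1 and Nfe2l2 stay within narrow bands, Sqstm1 peaks at 2032 CPM in Atg7KO tumour 2, and Nqo1 and Cbr3 lie higher in all 3 Atg7KO tumours than in any DKO tumour.

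Among the targets, Nqo1 (NM_008706, chr8:107388225-107403205, minus strand) encodes a quinone reductase that is often used to read NRF2 activity. It stood at 259, 89.8 and 176 CPM in non-tumour Atg7KO liver and at 387, 389 and 414 in Atg7KO tumours. In DKO it stood at 70.1, 121 and 154 CPM in non-tumour liver and at 259, 107 and 172 in tumours. The 3 Atg7KO tumours lay above all other 9 libraries and close together, while the other 3 groups overlapped. The log2 fold change in tumours was 1.18 (SE 0.42; edgeR adjusted p = 0.206) in Atg7KO and 0.64 (SE 0.41; edgeR adjusted p = 0.373) in DKO. DKO minus Atg7KO was -1.15 (SE 0.42; edgeR adjusted p = 0.224) in tumours and -0.60 (SE 0.41; edgeR adjusted p = 0.501) in non-tumour liver. The tumour effects differed by -0.54 (SE 0.58; edgeR adjusted p = 0.659). Single libraries moved 3 of these values by more than 1.5 times: the DKO tumour effect was 0.28 without DKO tumour 1, the difference in non-tumour liver -0.20 without Atg7KO non-tumour 1 and -0.92 without Atg7KO non-tumour 2, and the difference of tumour effects -0.93 and -0.23 without the same 2 non-tumour libraries.

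Cbr3 (NM_173047, chr16:93683219-93690991, plus strand) encodes a carbonyl reductase, with a close paralogue, Cbr1, that could share reads with it. It stood at 365, 93.6 and 195 CPM in non-tumour Atg7KO liver and at 440, 502 and 518 in Atg7KO tumours, against 82.3, 157 and 253 in non-tumour DKO liver and 215, 190 and 396 in its tumours. As for Nqo1, the Atg7KO tumours stood above all other libraries. The log2 fold change in tumours was 1.16 (SE 0.50; edgeR adjusted p = 0.272) in Atg7KO and 0.70 (SE 0.49; edgeR adjusted p = 0.419) in DKO. DKO minus Atg7KO was -0.87 (SE 0.50; edgeR adjusted p = 0.39) in tumours. In non-tumour liver it was -0.41, and 0.19 without Atg7KO non-tumour 1. Leaving out single libraries took the DKO tumour effect from 0.32, without DKO tumour 3, to 1.16, without DKO non-tumour 3, and the Atg7KO tumour effect from 0.80, without Atg7KO non-tumour 2, to 1.76, without Atg7KO non-tumour 1.

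Htatip2 (NM_001146052, chr7:49759106-49773999, plus strand) encodes TIP30, an oxidoreductase-like protein studied as a tumour suppressor. It stood at 128, 83.8 and 103 CPM in non-tumour Atg7KO liver, 132, 201 and 152 in its tumours, 60.1, 102 and 98.4 in non-tumour DKO liver and 131, 103 and 106 in its tumours. Tumours lay above non-tumour liver without overlap in each genotype, by narrow margins, and Atg7KO tumours lay above DKO tumours. Its tumour effect on the log2 scale was 0.63 (SE 0.25; edgeR adjusted p = 0.249) in Atg7KO and 0.38 (SE 0.25; edgeR adjusted p = 0.388) in DKO. Without DKO non-tumour 1, the lowest library, the DKO value was 0.18.

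Txnrd1 and Srxn1 serve the thioredoxin system. Txnrd1 (NM_015762, chr10:82833951-82897724, plus strand), the cytosolic thioredoxin reductase, stood at 362, 246 and 307 CPM in non-tumour Atg7KO liver, 361, 587 and 544 in its tumours, 184, 214 and 284 in non-tumour DKO liver and 621, 348 and 340 in its tumours. The 3 DKO tumours lay above the DKO non-tumour libraries, while Atg7KO tumour 1 fell just below Atg7KO non-tumour 1. On the log2 scale the effect was 0.94 (SE 0.31; edgeR adjusted p = 0.135) in DKO, where DESeq2 gave an adjusted p of 0.041, and 0.71 (SE 0.31; edgeR adjusted p = 0.274) in Atg7KO. Without DKO tumour 1 the DKO value was 0.60.

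Srxn1 (NM_029688, chr2:152105524-152111376, plus strand) encodes sulfiredoxin, which restores overoxidised peroxiredoxins. It stood at 727, 262 and 563 CPM in non-tumour Atg7KO liver, 606, 1022 and 1108 in its tumours, 180, 314 and 629 in non-tumour DKO liver and 557, 469 and 805 in its tumours. Both genotypes overlapped between tissues. Its log2 fold changes were 0.82 (SE 0.48; edgeR adjusted p = 0.408) in Atg7KO and 0.71 (SE 0.48; edgeR adjusted p = 0.398) in DKO. Without DKO non-tumour 1 the DKO value was 0.38, and without DKO non-tumour 3 it was 1.31. The Atg7KO value was 0.50 without Atg7KO non-tumour 2.

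Osgin1 (NM_027950, chr8:119437162-119446256, plus strand) encodes a growth inhibitor induced by oxidative stress. It stood at 290, 171 and 204 CPM in non-tumour Atg7KO liver, 320, 275 and 377 in its tumours, 186, 142 and 191 in non-tumour DKO liver and 576, 283 and 225 in its tumours. DKO tumours lay above DKO non-tumour liver without overlap, and DKO tumour 1 was the highest library. The log2 fold change was 1.06 (SE 0.34; edgeR adjusted p = 0.132; DESeq2 adjusted p = 0.0391) in DKO and 0.54 (SE 0.34; edgeR adjusted p = 0.439) in Atg7KO. Without DKO tumour 1 the DKO value was 0.55. Between tumours, DKO minus Atg7KO was 0.16 (SE 0.34; edgeR adjusted p = 0.844) for Osgin1, and the direction turned to -0.34 without DKO tumour 1 and also in limma voom.

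In Atg7KO tumours all 6 targets had a log2 fold change above 0, with a median of 0.76 and a range of 0.54 to 1.18. The median over all tested genes was -0.00, and 49.7% of them lay above 0. None of the 10 was called by edgeR at an adjusted p under 0.05 (0 of 10), as it called 0% of all genes. DESeq2 also called 0 of the 10, beside 611 of 19912 genes with reads, and limma voom 0, beside 339 of 14443. At an unadjusted p under 0.05, 4 of the 10 were higher (Nqo1, Txnrd1, Htatip2 and Cbr3), beside 8.04% of all genes. Tumours lay above non-tumour liver without overlap for 3 (Nqo1, Htatip2 and Cbr3), beside 11.6% of all genes. Markers of stellate cells, the fibre-forming cells of the liver, summed to 568 to 1158 CPM in non-tumour Atg7KO liver and 335 to 458 in its tumours, with 10 of 10 below 0 and a median of -1.08. Of the cholangiocyte markers, 8 of 10 lay below 0, with a median of -2.02, and their sums ran from 479 to 1228 and from 472 to 6509 CPM. The part of these cells in the target values was not tested.

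In DKO tumours the 6 targets also all lay above 0, with a median of 0.70 and a range of 0.38 to 1.06, against a median of 0.01 over all genes, of which 50.9% lay above 0. Calls by edgeR numbered 0 of the 10 and 0% of all genes. DESeq2 called Txnrd1 and Osgin1, where it called 4.66% of genes as higher, and limma voom called 0. At an unadjusted p under 0.05, 3 were higher (Nbr1, Txnrd1 and Osgin1), beside 12.2% of all genes. Without overlap 4 of the 10 lay higher (Nbr1, Txnrd1, Htatip2 and Osgin1), beside 13.2%, and Keap1 lay lower, beside 13.8%. Macrophage markers summed to 1114 to 1328 CPM in non-tumour DKO liver and 549 to 865 in its tumours, with 8 of 10 below 0 and a median of -0.64, and 7 of 9 hepatocyte markers lay below 0, with a median of -0.81. Their part in these values was not tested.

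Averaged over both genotypes, the tumour effect was 0.82 (SE 0.22; edgeR adjusted p = 0.0865) for Txnrd1, the lowest p among the 10. It was 0.91 (SE 0.29; edgeR adjusted p = 0.121) for Nqo1, 0.80 (SE 0.24; edgeR adjusted p = 0.107) for Osgin1 and 0.93 (SE 0.35; edgeR adjusted p = 0.165) for Cbr3. All 6 targets had an unadjusted p under 0.05, beside 10.8% of all genes, and edgeR called 0 of the 10, beside 0.00692% of all genes. DESeq2 called Txnrd1, Nqo1 and Osgin1, beside 4.07% of genes called higher, and limma voom called Txnrd1, beside 1.78%. Over 6 tumours and 6 non-tumour libraries none of the 6 targets was free of overlap, beside 1.65% of all genes.

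**Figure D3:**
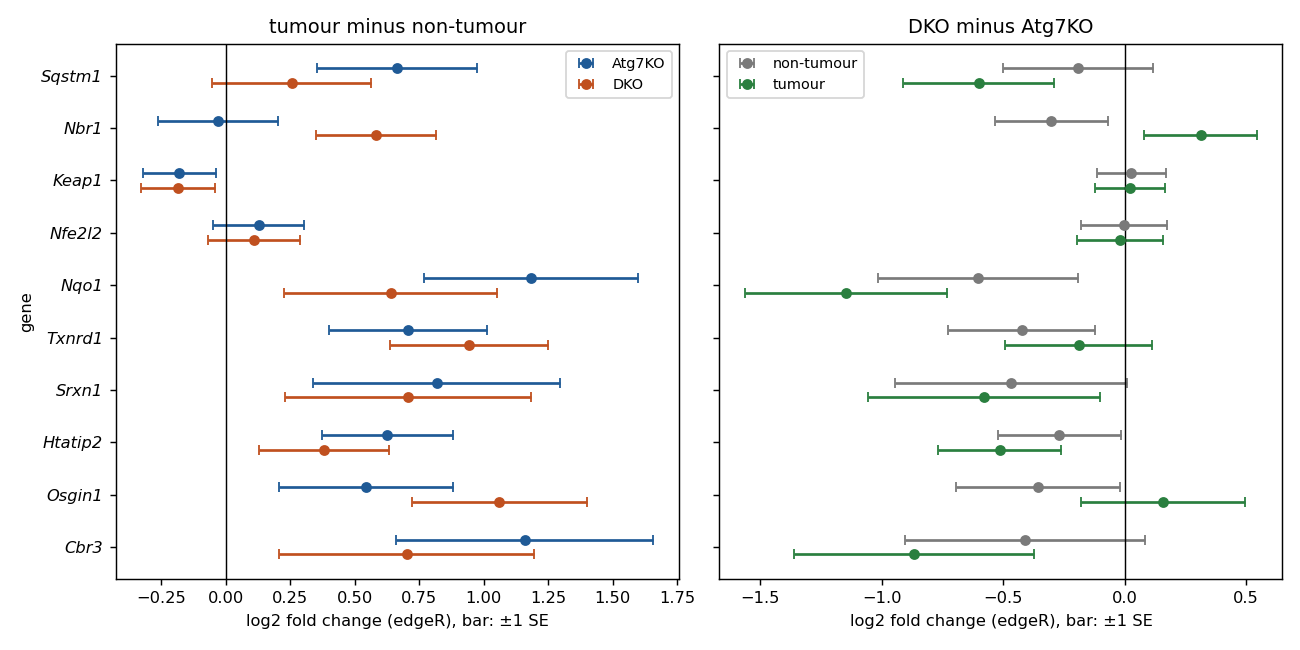
Log2 fold changes from edgeR with 1 SE, for tumour minus non-tumour in each genotype (left) and DKO minus Atg7KO in each tissue (right). All 6 targets lie to the right of 0 in both tumour comparisons, Keap1 and Nfe2l2 lie near 0 throughout, and Nqo1 lies farthest to the left, at -1.15, between tumours.

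Between genotypes most targets had log2 differences (DKO minus Atg7KO) below 0. Genotype and sex, as read from sex chromosome transcripts, cannot be told apart in these differences. In tumours 5 of 6, all but Osgin1, lay below 0 and the median was -0.55, against a median of 0.00 over all genes, of which 50.3% lay above 0. EdgeR, DESeq2 and limma voom each called 0 of the 10, where edgeR called 0.0485% of all genes. DESeq2 called 551 of 19912 genes with reads there, and limma voom 37 of 14443. Nqo1 alone had an unadjusted p under 0.05, beside 8.27% of genes lower at that p, and Nqo1, Htatip2 and Cbr3 lay lower without overlap, beside 10.3%. In non-tumour liver all 6 lay below 0, with a median of -0.42 against -0.05 over all genes, of which 46.1% lay above 0. There edgeR called 0 of the 10, beside 0.0554% of all genes, and 0 had an unadjusted p under 0.05 beside 15.1%. DESeq2 called 0, beside 189 of 19912 genes with reads, and limma voom 0, beside 563 of 14443. Nbr1 alone lay lower without overlap, beside 12.2% of all genes. Averaged over tissues, Nqo1 was -0.88 (SE 0.29; edgeR adjusted p = 0.226; limma voom adjusted p = 0.0464), and Nqo1 and Htatip2 had an unadjusted p under 0.05, beside 8.25% of genes lower. EdgeR called 0 of the 10 in that average, beside 0.132% of all genes, and DESeq2 0, beside 519 of 19912 genes with reads. Limma voom called Nqo1 alone, beside 0.997% of genes called lower. Cell type markers moved with these comparisons: all 10 stellate markers lay above 0 for DKO minus Atg7KO in tumours, with a median of 0.77 and summed levels of 443 to 924 CPM in DKO against 335 to 458 in Atg7KO tumours. Among them Pdgfra, a growth factor receptor, stood at 1.32 (SE 0.31; edgeR adjusted p = 0.129). Of the cholangiocyte markers 7 of 10 lay above 0 in tumours, with a median of 1.53, and their sums ran from 458 to 1088 CPM in DKO and from 472 to 6509 in Atg7KO. In non-tumour liver 8 of 10 stellate markers lay below 0, with a median of -0.41 and sums of 467 to 812 CPM in DKO against 568 to 1158 in Atg7KO. The part of these cells in the target values was not tested.

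The tumour effects themselves did not differ detectably between genotypes for any of the 10 at this number of libraries. EdgeR called 0 of the 10 for the difference, as it called 0% of all genes, and 0 had an unadjusted p under 0.05 beside 17.9%. DESeq2 called 0, beside 408 of 19912 genes with reads, and limma voom called 0. These comparisons share libraries, so their values are not separate evidence.

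The targets also varied between libraries of 1 group. Each target was centred on its mean log2 CPM over the 12 libraries, and the 6 were averaged into a level per library. It was 0.33, -0.81 and -0.15 in non-tumour Atg7KO liver, 0.46, 0.80 and 0.84 in its tumours, -1.12, -0.61 and -0.13 in non-tumour DKO liver and 0.44, -0.21 and 0.16 in its tumours. The 3 Atg7KO tumours were thus the highest of the 12, with DKO tumour 1 just below them and the other groups overlapping. Of the 6 non-tumour libraries, Atg7KO non-tumour 1 was highest for all 6 targets and DKO non-tumour 1 was lowest for 5, all but Osgin1. Atg7KO non-tumour 1 had the lowest hepatocyte sum of the 6, at 58056 CPM, and the highest stellate sum of all 12 libraries, at 1158 CPM. In the other non-tumour libraries, taken from high to low target level, stellate sums fell and then rose. They were 700 CPM in DKO non-tumour 3, 642 in Atg7KO non-tumour 3 and 467 in DKO non-tumour 2. Atg7KO non-tumour 2 followed at 568 CPM and DKO non-tumour 1, with the lowest target level, at 812. The 3 libraries with the lowest target level, Atg7KO non-tumour 2 and DKO non-tumour 1 and 2, had the highest hepatocyte sums, from 115630 to 121810 CPM. The part of these cells in the target level was not tested. Among non-tumour libraries alone the highest exceeded the lowest 4.44-fold for Cbr3, 4.04-fold for Srxn1 and 3.69-fold for Nqo1. Sqstm1, centred likewise, was 1.15 in Atg7KO tumour 2 and between -0.47 and 0.24 in the other libraries.

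**Figure D4:**
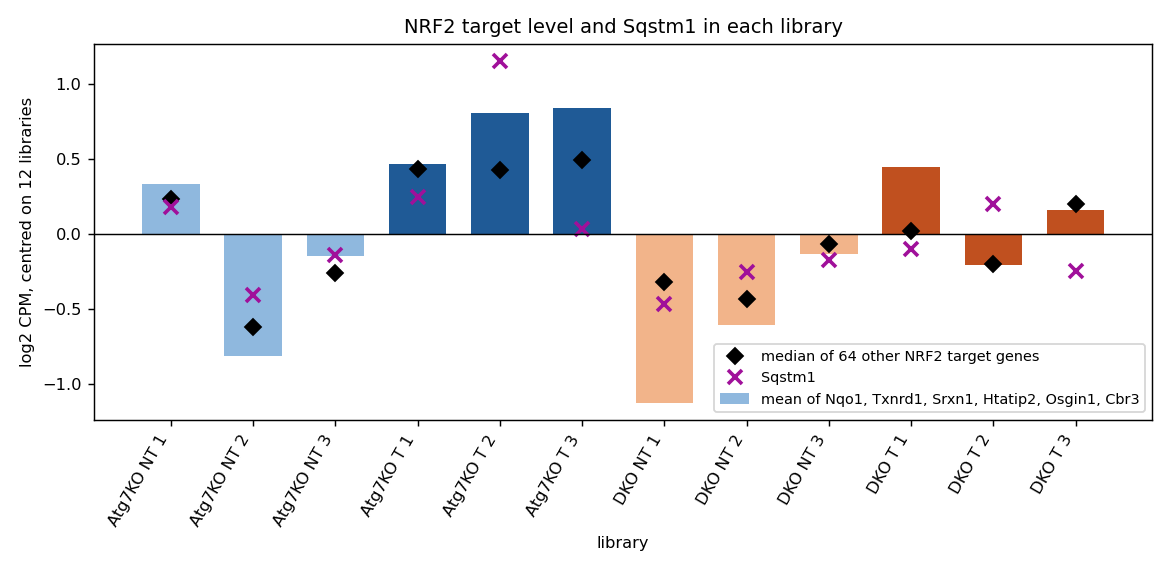
Mean centred log2 CPM of the 6 targets in each library (bars), with the median of 64 other genes listed as NRF2 targets (diamonds) and Sqstm1 (crosses). Bars run from -1.12 in DKO non-tumour 1 to 0.84 in Atg7KO tumour 3, the diamonds lie highest in the 3 Atg7KO tumours, and the Sqstm1 cross stands out in Atg7KO tumour 2 alone.

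**Figure D5:**
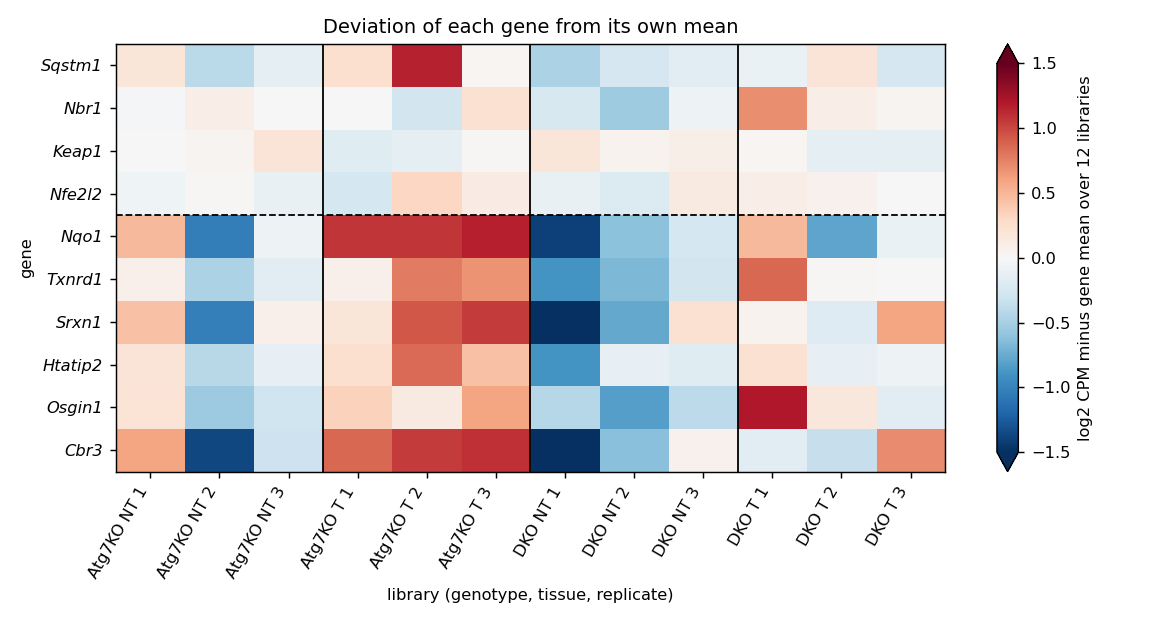
Log2 CPM of each gene minus its mean over the 12 libraries, with groups divided by solid lines and the 6 targets below the dashed line. The target block is redder (higher) in Atg7KO tumours and bluer (lower) in Atg7KO non-tumour 2 and DKO non-tumour 1, and the Keap1 and Nfe2l2 bands stay pale.

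Over the 12 libraries, Pearson's r of log2 CPM with Nqo1 was 0.91 for Htatip2, 0.90 for Cbr3, 0.86 for Srxn1, 0.83 for Txnrd1 and 0.67 for both Osgin1 and Sqstm1. It was 0.26 for Nfe2l2 and -0.46 for Keap1, and the median over all tested genes was 0.00. The 5 genes most like Nqo1 among all tested genes were Gsta2 (0.97), Sgol1 (0.95), Tulp3 (0.95), Gstm1 (0.94) and Akr1c19 (0.94). Gsta2 and Gstm1 encode glutathione transferases and Akr1c19 an aldo-keto reductase, and all 3 belong to families of close paralogues that can share reads. The 5 most like Sqstm1 were Sele (0.93), Ndrg1 (0.92), Homer3 (0.91), Ddc (0.91) and Tnfaip1 (0.90), of which Sele stayed at or below 3.17 CPM. All 5 had their highest level in Atg7KO tumour 2, as Sqstm1 did. Without that library their r was 0.78, 0.77, 0.81, 0.70 and 0.69 in that order, and that of Nfe2l2 with Sqstm1 went from 0.49 to -0.06. For the 5 genes most like Nqo1 it lay between 0.93 and 0.97 without the same library, and for Nfe2l2 it was 0.02. Leaving it out was chosen after seeing the data. The libraries fall into the same 4 groups for every gene, so these values describe likeness and no more.

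Another 64 genes were listed here by role as NRF2 targets, which does not mean that NRF2 alone controls them. Of these, Atg7KO tumours had 55 log2 fold changes above 0 with a median of 0.65, and DKO tumours 45 with a median of 0.33. EdgeR called 0 of the 64 in either comparison. In Atg7KO tumours an unadjusted p under 0.05 was reached by 22 with higher and 1 with lower levels, beside 8.04% and 8.74% of all genes. Higher levels were called there by DESeq2 for 8 (1.72% of the genes with an adjusted p) and by limma voom for 2 (0.741%). In DKO tumours 16 were higher and 3 lower at that p, beside 12.2% and 10.3% of all genes, with 5 higher (4.66%) and 2 lower (3.90%) by DESeq2 and 0 by limma voom. Between tumours, DKO minus Atg7KO was below 0 for 49, with a median of -0.36, and 15 were lower and 3 higher at that p, beside 8.27% and 8.34% of all genes. There edgeR and limma voom called 0 of the 64 and DESeq2 called 7 lower, beside 1.86%.

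Glutathione genes lay high in tumours of both genotypes: 18 of 19 lay above 0 in Atg7KO, with a median of 0.77, and 16 of 19 in DKO, with a median of 0.78. Gclc, the catalytic subunit of the rate-limiting enzyme of glutathione synthesis, stood at 1002 ± 253 CPM in non-tumour Atg7KO liver and 2262 ± 243 in tumours, and at 737 ± 464 and 1740 ± 492 in DKO (SD, n = 3). Its log2 fold changes were 1.17 (SE 0.41; edgeR adjusted p = 0.203) and 1.24 (SE 0.41; edgeR adjusted p = 0.135). Abcc4, an exporter of conjugates, stood at 184 ± 62.8 and 452 ± 52.6 CPM in Atg7KO and at 89.7 ± 52.0 and 318 ± 123 in DKO, with log2 fold changes of 1.29 (SE 0.41; edgeR adjusted p = 0.187) and 1.83 (SE 0.42; edgeR adjusted p = 0.117). Gss, glutathione synthetase, was 0.83 and 0.23, the glutathione transferase Gsta1 1.37 and 1.03, and Gstm1, the most abundant of the list, 0.77 and 0.59. Mgst1, a microsomal glutathione transferase, had 3573 ± 719 CPM in non-tumour liver and 1795 ± 404 in tumours of DKO, at -0.99 (SE 0.29; edgeR adjusted p = 0.122), and stood at 0.05 in Atg7KO.

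Genes of drug and carbonyl metabolism had 16 of 19 values above 0 in each genotype, with medians of 0.59 in Atg7KO and 0.50 in DKO. In Atg7KO the lowest p belonged to Akr1c13, an aldo-keto reductase, at 0.87 (SE 0.27), Ephx1, the microsomal epoxide hydrolase, at 0.93 (SE 0.31), and Aldh1a1, a retinal dehydrogenase, at 1.04 (SE 0.38). In DKO those 3 genes stood at 0.20, 0.50 and 0.19. The lowest p in DKO belonged to Akr7a5, at -0.86 (SE 0.27), Akr1b8, at 2.77 (SE 0.92), and Ptgr1, at 2.11 (SE 0.76), the last 2 resting on wide spreads of 46.6 ± 68.7 and 73.2 ± 89.5 CPM in DKO tumours. Cyp2a5, a cytochrome P450 and the most abundant of the list, stood at 0.59 in Atg7KO and 0.98 in DKO.

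The remaining roles had high medians in Atg7KO and medians nearer 0 in DKO. For the list of iron, heme and other targets, which holds 13 genes, Trib3, Gdf15, Lgals3, Slc6a9, Panx2 and Pir among them, the medians were 0.71, with 12 of 13 above 0, and 0.08, with 7 of 13. Fth1, the ferritin heavy chain, stood at 4263 ± 1779 and 9644 ± 336 CPM in Atg7KO and at 4399 ± 595 and 5953 ± 912 in DKO. Its log2 fold changes were 1.18 (SE 0.33; edgeR adjusted p = 0.153) and 0.44. Slc48a1, a heme transporter, was 1.18 and 0.76, and Gdf15, a stress-induced hormone, 1.47 and 0.12. Of genes listed under NADPH supply, 5 of 7 lay above 0 in Atg7KO, with a median of 0.59, and 4 of 7 in DKO, with a median of 0.16. Not all of them make NADPH themselves, and Tkfc does not. G6pdx, glucose-6-phosphate dehydrogenase, stood at 51.0 ± 25.3 and 216 ± 38.7 CPM in Atg7KO and at 49.7 ± 17.7 and 59.7 ± 44.2 in DKO, with log2 fold changes of 2.08 (SE 0.54; edgeR adjusted p = 0.129) and 0.27. The pentose phosphate enzymes Tkt and Taldo1 were 0.82 and 0.59 in Atg7KO and 0.16 and -0.01 in DKO. In the same order of genotypes Pgd, which also makes NADPH, was 0.66 and 0.42, the isocitrate dehydrogenase Idh1 0.10 and -0.28, and Tkfc -0.17 and -0.48. Thioredoxin and peroxiredoxin genes had medians of 0.41, with 4 of 6 above 0, and -0.14, with 2 of 6. Prdx1, a peroxiredoxin, stood at 1066 ± 97.8 and 1744 ± 8.71 CPM in Atg7KO, at 0.71 (SE 0.28; edgeR adjusted p = 0.239), and at 1561 ± 323 and 1280 ± 403 in DKO, at -0.29. Thioredoxin itself, Txn1, was 0.74 and -0.51, its inhibitor Txnip -0.45 and -0.07, the stress protein gene Sesn2 0.43 and 0.43, and glutaredoxin, Glrx, -0.04 and 0.45. From the iron, heme and other list, the pseudokinase gene Trib3 was 0.78 and 1.32 and the biliverdin reductase Blvra 0.28 and -0.52. Over all 64 targets the tumour effect in DKO minus that in Atg7KO had a median of -0.24, with 9 lower and 1 higher at an unadjusted p under 0.05, beside 8.45% and 9.43% of all genes. EdgeR and limma voom called 0 of the 64 for that difference, and DESeq2 called 1 lower, beside 2.01%.

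Partners and regulators of NRF2, 22 genes from small MAF proteins to the ligases that act on NRF2, had medians of -0.09 in Atg7KO tumours, with 8 above 0, and 0.34 in DKO tumours, with 16 above 0. Of the 22, edgeR called 0 in either comparison. At an unadjusted p under 0.05, 1 was higher and 3 lower in Atg7KO, beside 8.04% and 8.74% of all genes. DESeq2 called 0 there, beside 611 of 19912 genes with reads, and limma voom 0, beside 339 of 14443. In DKO 4 were higher and 0 lower, beside 12.2% and 10.3% of all genes, with 1 called higher by DESeq2, beside 4.66%, and 0 by limma voom. Mafk, a small MAF partner of NRF2, stood at 27.2 ± 3.64 CPM in non-tumour DKO liver and 51.3 ± 16.4 in its tumours, at 0.92 (SE 0.23; edgeR adjusted p = 0.117), and at 0.14 in Atg7KO. Bach1, which competes with NRF2 for the same elements, was 0.52 (SE 0.20; edgeR adjusted p = 0.167) in DKO and -0.11 in Atg7KO. Gsk3b, a kinase that marks NRF2 for degradation, was 0.60 (SE 0.21; edgeR adjusted p = 0.143) in DKO and 0.03 in Atg7KO. The 3 lowest p in Atg7KO belonged to genes of low level, Amer1 at -1.03 (SE 0.31), Nfe2l3 at -2.21 (SE 0.74) and Bach2 at -1.17 (SE 0.42). Rxra, a nuclear receptor that can repress NRF2 and the most abundant of the list, was -0.53 in Atg7KO and -0.10 in DKO.

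Of 13 other autophagy receptors listed, 12 were in the table and 11 were tested, with medians of 0.12 in Atg7KO tumours and -0.14 in DKO tumours. EdgeR called 0 of them. At an unadjusted p under 0.05, 1 was higher in Atg7KO, beside 8.04% of all genes, and 3 lower in DKO, beside 10.3%. DESeq2 called 0 in Atg7KO, beside 611 of 19912 genes with reads, and 2 lower in DKO, beside 3.90%. Limma voom called 0 in each, beside 339 of 14443 genes in Atg7KO. Bnip3, a mitophagy receptor, stood at 189 ± 35.4 and 182 ± 23.8 CPM in Atg7KO and at 435 ± 42.2 and 223 ± 29.5 in DKO, where its log2 fold change was -0.96 (SE 0.21; edgeR adjusted p = 0.117). Phb2, an inner-membrane mitophagy receptor, was -0.75 (SE 0.21; edgeR adjusted p = 0.12) and Stbd1, a glycogen receptor, -0.68 (SE 0.27; edgeR adjusted p = 0.175) in DKO. Fundc1, another mitophagy receptor, was 0.52 (SE 0.20; edgeR adjusted p = 0.241) in Atg7KO. The ferritin receptor Ncoa4 was 0.34 and -0.14, and Bnip3l, a relative of Bnip3, 0.45 and -0.40, in Atg7KO and DKO. Of 19 partners and regulators of p62, 9 lay above 0 in Atg7KO and 12 in DKO, with medians of -0.11 and 0.11. Of the 19, edgeR called 0. At an unadjusted p under 0.05, 2 were higher and 2 lower in Atg7KO, beside 8.04% and 8.74% of all genes, and 4 higher and 1 lower in DKO, beside 12.2% and 10.3%. With the same shares of all genes beside them, DESeq2 called 0 in Atg7KO and 1 lower in DKO, and limma voom called 0. The LC3 family members Map1lc3b and Gabarapl2, which tether receptors to the autophagosome, were 0.52 (SE 0.21) and 0.47 (SE 0.19) in Atg7KO and -0.42 (SE 0.21) and -0.39 (SE 0.19) in DKO. Gabarap, of the same family, was -0.75 (SE 0.25; edgeR adjusted p = 0.139) in DKO and 0.38 in Atg7KO. Gabarapl1, the most abundant of the list, was 0.58 and 0.23 in Atg7KO and DKO. The autophagy kinase Ulk1 was -0.54 (SE 0.22) in Atg7KO and -0.01 in DKO, its partner Rb1cc1 0.16 and 0.66, and Prkci, an atypical protein kinase C that binds p62, 0.18 and 1.04.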

How the data were processed

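Libraries were made from total RNA of 12 livers or tumours, per the labels. The authors deposited unnormalised counts of reads for each RefSeq gene, beside its length and mm10 position. Tools named in the submitters' processing notes are bcl2fastq, STAR 2.5.3a, Subread 1.5.3 with featureCounts, and edgeR 3.20.8, with the build mm10. Strand setting, library kit and annotation release are not given in the sources used here, so sense and antisense reads could be mixed. No exon of the 10 genes overlapped another gene of the table.

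The 10 genes and the pathway and marker lists were chosen with earlier results of these data known. Genes were filtered with filterByExpr (minimum count 10, minimum total 15), scaled with TMM factors and tested in 1 fit of all 12 libraries, a term per group, with the robust edgeR 4.0.16 quasi-likelihood F test (legacy deviances) in R 4.3.3. Two-sided p-values were adjusted (Benjamini-Hochberg) over all 14443 genes in each comparison, and calls lie under 0.05. Tested on simulated data, the fit recovered the sizes of known changes, but at the spread estimated here it called few of the smaller ones. No single-value permutation test was run, since 3 against 3 libraries give an exact p of 0.1 at best. Levels per kilobase divide TMM-scaled CPM by gene length, and log2 CPM used a prior count of 2.

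Named were the 10 genes, the label check genes, and in each pathway list genes with the 3 lowest p and the highest CPM per tumour comparison. Likeness takes the 5 genes with the highest r. DESeq2 1.42.0, limma 3.58.1 (voom with quality weights), RLE factors, no filter, a gene length offset, a replicate block and leaving out each library were run beside the main test. Same-numbered libraries of both tissues were not taken as pairs. Plots used matplotlib 3.10.9 (python 3.11.15).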

Additional observations from a re-analysis of the deposited data

How the results depend on the processing

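Log2 fold changes of the 10 genes in 7 comparisons (tumour minus non-tumour in each genotype and averaged, DKO minus Atg7KO in each tissue and averaged, and the difference of tumour effects) kept direction and call in 393 of 420 other settings and in 792 of 840 fits without a library. For the 6 targets in the 3 tumour comparisons this held in 318 of 324 settings, and the other 6 passed the threshold in the same direction. These counts include fits without a library from a group outside the comparison. Such fits hardly change its log2 fold change and could turn only values near 0, so the counts overstate stability. Genes called by edgeR numbered 0, 0, 8, 7, 1, 19 and 0 in the order tumour minus non-tumour in Atg7KO, in DKO, DKO minus Atg7KO in non-tumour liver, in tumours, averaged tumour effect, averaged genotype effect and difference of tumour effects. DESeq2 called 611, 1102, 189, 551, 1236, 519 and 408, limma voom 339 for Atg7KO tumours, 563 for genotype in non-tumour liver, 37 in tumours, 522 for the averaged tumour effect and 252 for the averaged genotype effect, and a replicate block 3 for Atg7KO tumours, 24 for the averaged tumour effect and 1 for the difference. For genotype in tumours and the averaged tumour effect, RLE factors gave 12 and 14, no filter 11 and 21, and a length offset 13 and 8. Without a library in turn the counts ran from 0 to 3, 0 to 597, 6 to 8, 7 to 30, 0 to 133, 7 to 30, and 0; the 597 and 133 came without DKO non-tumour 3. Of the 10 genes, DESeq2 called 2 in DKO tumours and 3 in the average, limma voom 1 in each average, and every fit without a library called 0. The replicate block, with 0 of the 10 called, rests on numbers only: same-numbered libraries had correlated deviations of 0.016, 0.056 and 0.311 in Atg7KO and 0.074, 0.332 and 0.024 in DKO. All 6 lay above 0 but 2 of 6 above 0.1, while 9 of 12 pairs with different numbers lay below 0. In all, 4 of 6 non-tumour and 3 of 6 tumour libraries correlated best with their own number. Whether a number marks 1 animal is not given in the labels.

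Some values turned direction, the largest of them -0.46 for Cbr3 and -0.41 for Sqstm1 in the difference of tumour effects and -0.41 for Cbr3 in non-tumour liver. In Atg7KO tumours Nbr1 was 0.10 with a length offset and 0.073 in voom. For DKO minus Atg7KO in non-tumour liver, Nfe2l2 was 0.0091 with RLE factors, 0.0096 in DESeq2 and 0.00048 in voom, and Keap1 -0.0085 in voom. In tumours Keap1 was -0.11 with a length offset and -0.061 in voom, Nfe2l2 0.050 with a length offset and Osgin1 -0.34 in voom. Averaged over tissues, Nfe2l2 was 0.0044 with a length offset, Nbr1 -0.14 in voom and -0.0045 with the replicate block, and Keap1 -0.035 in voom. For the difference of tumour effects, Keap1 was 0.0077 without a filter, Nfe2l2 0.091 with a length offset and 0.0079 with the replicate block, Htatip2 0.20 and Cbr3 0.032 with a length offset, and Srxn1 0.30 in voom. Without a library in turn the ranges that crossed 0 were, in Atg7KO tumours, -0.15 to 0.082 for Nbr1 and -0.014 to 0.27 for Nfe2l2. For DKO minus Atg7KO they were, in non-tumour liver, -0.0051 to 0.089 for Keap1, -0.10 to 0.068 for Nfe2l2 and -0.87 to 0.19 for Cbr3, and in tumours -0.028 to 0.094 for Keap1, -0.16 to 0.14 for Nfe2l2 and -0.34 to 0.43 for Osgin1. Averaged over tissues they were -0.11 to 0.083 for Nbr1, -0.082 to 0.070 for Nfe2l2 and -0.35 to 0.040 for Osgin1. For the difference of tumour effects they were -0.63 to 0.019 for Sqstm1, -0.065 to 0.054 for Keap1, -0.16 to 0.13 for Nfe2l2, -0.11 to 0.43 for Txnrd1, -0.45 to 0.49 for Srxn1 and -1.05 to 0.00080 for Cbr3. The cause was not tested. With 3 libraries a group, the spread between libraries and not read depth limits these values.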
